A study of Mus musculus with 12 samples.

Results

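The genes described here encode the receptors for glutamate and GABA, the main excitatory and inhibitory transmitters of the brain. Members were all array probes whose gene name began as those of the ionotropic glutamate receptors (Gria, Grid, Grik, Grin), the metabotropic glutamate receptors (Grm), the GABA-A receptors (Gabr) or the GABA-B receptors (Gabbr). The rule took 92 of 41174 probes and 47 genes. Described here are 41 subunit genes. Of these, 25 were detected well enough to be tested, among 10896 genes tested in all.

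RNA came from neurons cut by laser from 2 areas of the entorhinal cortex, the medial (MEC) and the lateral (LEC), neighbours that connect the neocortex with the hippocampus. Mutants were Naglu-/- and controls Naglu+/- female littermates on the C57BL/6 strain, aged 2 months, so no wild-type mice were included. Naglu encodes a lysosomal enzyme that degrades heparan sulfate, and its loss models Sanfilippo syndrome type B (MPSIIIB). Per the labels, 500 neurons per region were picked by position on Nissl-stained sagittal sections 12 µm thick, and the RNA was amplified. Each region had 3 pairs of mutant and control, and each pair was hybridised to 2 dual-dye arrays with the dyes exchanged, for 12 arrays. Whether a mouse that gave MEC neurons also gave LEC neurons is not stated.

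Fast excitation passes through AMPA and kainate receptors, while NMDA receptors also need the membrane to be depolarised and admit calcium. Metabotropic glutamate receptors and GABA-B receptors act through G proteins. GABA-A receptors are chloride channels of 5 subunits, most often alpha, beta and gamma, and the alpha subunit sets much of their kinetics and drug response.

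All 6 MEC arrays were scanned in 1 session with pixels of 10 µm and 1 pass, and all 6 LEC arrays in a later session with pixels of 5 µm and 2 passes, per the file headers. Every difference between MEC and LEC below therefore cannot be told apart from the scan session. The share of spots well above background was 48.2% to 67.9% in the Cy3 dye and 14.8% to 30.4% in Cy5. By the authors' value table, 5 of the 6 LEC files carry the name of a different LEC array and the sign of replicate 2 opposes its labelled dyes in both regions, so the direction of replicate 2 is not settled. Levels average both dyes and need no direction. Naglu itself was checked first, and neither of its 2 probes passed the filter on dim probes. Its brighter probe (build mm8, chromosome 11, 100893407 to 100893466) had log2 ratios of mutant over control of −0.04, 0.09 and 0.05 in the MEC pairs and 0.01, −0.04 and 0.06 in the LEC pairs, and was well above background in 12 of 24 readings. It was not well above background in Cy5 on any array, and the sources used here do not say where the gene was disrupted, so these values check no label.

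Of the markers, 9 of 9 general neuronal genes were tested, and 5 of 8 of excitatory neurons, with Slc17a7 and Tbr1 not well above background often enough. RNA of other cells was present: 12 of 15 microglial, 9 of 13 oligodendrocyte and 9 of 12 astrocyte genes were tested, although Gfap and Aqp4 were not among them. The summed intensity of the general neuronal genes was 3670 to 3990 in MEC and 2400 to 2660 in LEC, and 7 of 9 passed as higher in MEC and 1 as higher in LEC. For inhibitory neurons the sums were 2890 to 3190 in MEC and 3210 to 3520 in LEC, and 3 of 10 passed as higher in MEC and 1 in LEC. For excitatory neurons they were 1840 to 2720 and 3140 to 3910, and 1 of 5 passed in each direction. The brightest gene weighs most in these sums. For excitatory neurons it was Nrgn (log2 MEC minus LEC −1.16, passed), while Neurod6 gave 1.15 (passed). For inhibitory neurons it was Cck (−0.21, not passed). Of all genes tested, 11.6% passed as higher in MEC and 14.1% as higher in LEC. For oligodendrocytes they were 1330 to 1580 and 1080 to 1210, and 4 of 9 passed as higher in MEC and 2 in LEC. Of 16 listed genes of cortical layers, 12 were tested, and 6 passed as higher in MEC and 2 in LEC, which is 66.7%. Their differences ran from −0.94 for Calb1 to 1.47 for Lef1. The part of cell content or layer in the receptor differences was not tested, and fewer cells of a type and less RNA per cell cannot be told apart.

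The first comparison asked how the level of each receptor gene differed between the neurons of MEC and LEC. A level is the mean log2 intensity of both dyes of a pair, with 3 pairs per region, and a gene was called where limma's Benjamini-Hochberg adjusted p was under 0.05. Of 25 subunit genes, 10 were called, which is 40.0% beside 25.7% of all genes tested. Of these, 2 were higher in MEC and 8 in LEC, where 11.6% and 14.1% of all genes were called. Gabra5 and Gabrb1 passed the filter on dim probes only through the region in which they were then called higher, so their calls are not independent of the filter. Of the 21 subunit genes whose probe passed it in both regions, 8 were called (1 higher in MEC, 7 in LEC), 38.1% beside 27.8% of all such genes; this split was chosen after the values were seen. The pair values of MEC and LEC did not overlap for 15 of the 25, which is 60.0% beside 43.9% of all genes. The median difference, MEC minus LEC, was −0.10 over the subunit genes and −0.02 over all genes. With arrays scaled to their medians instead of by quantiles, the median of all genes moved to −0.188, and 1 member was called higher in MEC and 15 in LEC, 16 of 25 beside 54.1% of all genes. Sizes moved as well: Gria1 went from −0.63 to −1.25, Gabbr1 from −0.47 to −0.94, Grm5 from −0.45 to −0.89, Gabra2 from −0.55 to −0.98, Gabra4 from −1.07 to −1.54 and Grik1 from −0.24 to −0.38. Folds below are with quantile scaling. With quantile scaling the calls ran in both directions within the GABA-A alpha subunits and the metabotropic receptors. By the probes used, they ran towards LEC alone among the tested AMPA, kainate, GABA-A beta and GABA-B genes (the plot of differences by class). A further probe of the beta gene Gabrb2, which the rule did not take, was called higher in MEC (0.75 ± 0.07).

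**Figure D1:**
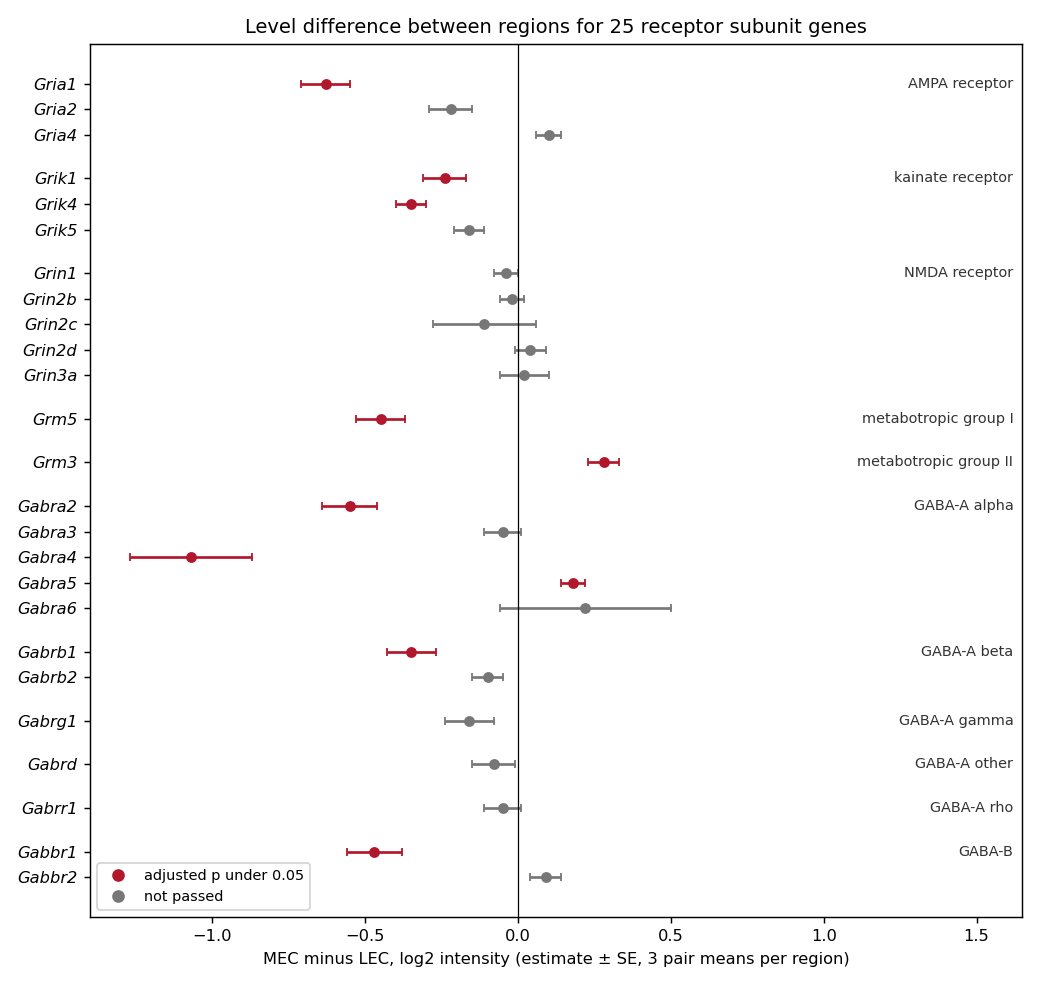
Difference in level between MEC and LEC (log2, horizontal axis) for 25 subunit genes, grouped by receptor class, with the standard error of 3 pair means per region as bars. Red points passed the test and lie between −1.07 for Gabra4 and 0.28 for Grm3. The 5 NMDA receptor genes lie between −0.11 and 0.04. Differences of dim probes are understated.

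Of the 4 AMPA receptor genes, 3 were tested and 1 was called. Gria1, the GluA1 subunit that is inserted into synapses during potentiation, had levels of 9.38, 9.45 and 9.47 in MEC and 9.87, 10.15 and 10.16 in LEC. All 3 LEC pairs lay above all 3 MEC pairs. It was 1.55-fold higher in LEC (MEC minus LEC −0.63 ± 0.08 SE, adjusted p = 0.00214; build mm8, chromosome 11, 57146150 to 57146209). Gria2, whose edited subunit keeps calcium out of the channel, fell just outside the threshold, with levels of 6.55, 6.74 and 6.78 in MEC and 6.93, 6.83 and 6.98 in LEC (−0.22 ± 0.07, adjusted p = 0.0535). A second Gria2 probe, dimmer than the first, gave 0.08 ± 0.04, so the probes of this gene differ in sign. Gria4 gave 0.10 ± 0.04 and was not called (adjusted p = 0.136). Gria3 was not tested.

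Kainate receptors had 3 of 5 genes tested, and all 3 had every LEC pair above every MEC pair. Of all genes tested, 43.9% had no overlap between the pairs of MEC and LEC, in either direction. Grik4, one of the high-affinity kainate subunits, had levels of 5.99, 6.01 and 6.01 in MEC and 6.42, 6.38 and 6.25 in LEC, a 1.27-fold higher level in LEC (−0.35 ± 0.05, adjusted p = 0.00399). Its probe was well above background in all 12 LEC readings and in 6 of 12 MEC readings. The size depends on the signal used: Agilent processed signals gave −1.15 for Grik4, −0.94 for Grik1 and, among the GABA-A genes, −1.27 for Gabrb1 (−0.35 here), each called as well. Grik1, which encodes the GluK1 subunit, had 6.04, 6.32 and 6.17 in MEC and 6.40, 6.46 and 6.41 in LEC (−0.24 ± 0.07, adjusted p = 0.038). Its call was lost without MEC replicate 1 (adjusted p = 0.0952), without MEC replicate 3 (0.0893) and without any 1 of the 3 LEC replicates (0.0615 to 0.115). Grik5, another high-affinity subunit, which joins GluK1 to GluK3, had 7.21, 7.28 and 7.23 in MEC and 7.37, 7.36 and 7.47 in LEC and just missed the threshold (−0.16 ± 0.05, adjusted p = 0.0504).

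No tested NMDA receptor gene was called, of 5 tested among 7. The probes used for Grin1, Grin2b and Grin2d were dim, with Cy5 well above background on 8, 2 and 1 of 12 arrays. Those of Grin2c and Grin3a were so on 11. The background correction understates differences of dim probes, so these values do not show equal levels in the 2 regions. Grin1, the subunit that every NMDA receptor holds, had levels of 6.12, 6.13 and 6.15 in MEC and 6.21, 6.16 and 6.16 in LEC. These ranges did not overlap, but the difference of −0.04 ± 0.04 did not pass (adjusted p = 0.503). Grin2b, the GluN2B subunit that prevails early in life, had 6.18, 6.15 and 6.18 in MEC and 6.18, 6.23 and 6.16 in LEC. Its other 2 kept probes gave −0.17 and −0.09, neither called. Grin2c, Grin2d and Grin3a had differences of −0.11 ± 0.17, 0.04 ± 0.05 and 0.02 ± 0.08. The standard error of Grin2c was the widest of these, and 1 pair in each region stood above the others, at 6.86 in MEC pair 3 and 7.02 in LEC pair 1. Grin2a, the GluN2A subunit that gains weight with age, was not tested. Grid1, which encodes a delta receptor, was not tested.

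Among the metabotropic glutamate receptors reported here, Grm5 and Grm3 were tested and both were called, where 25.7% of all genes tested were. Grm5, which couples to calcium release and is a main group I receptor of the forebrain, had levels of 7.45, 7.35 and 7.10 in the MEC pairs and 7.77, 7.75 and 7.74 in the LEC pairs. The latter were close together and all above MEC, a 1.37-fold higher level in LEC (−0.45 ± 0.08, adjusted p = 0.00731). Grm3, a group II receptor that lowers cAMP and is made by both neurons and astrocytes, had 6.60, 6.50 and 6.45 in MEC and 6.24, 6.26 and 6.22 in LEC. It was 1.21-fold higher in MEC (0.28 ± 0.05, adjusted p = 0.0077). The call was lost with median scaling (0.11, adjusted p = 0.122), with Cy3 only (0.18, adjusted p = 0.058) and with the channels of either genotype alone. The calls of Grik4, Grik1, Gabra4, Gabra5 and Gabrb1 were also lost with either genotype alone. Those of Gria1, Gabra2 and Grm5 held with control channels only, and that of Gabbr1 with mutant channels only. None of the 4 group III genes (Grm4, Grm6, Grm7 and Grm8), the receptors of presynaptic terminals and, for Grm6, of the retina, was tested. The Grm6 probe was not well above background in any of 24 readings.

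**Figure D2:**
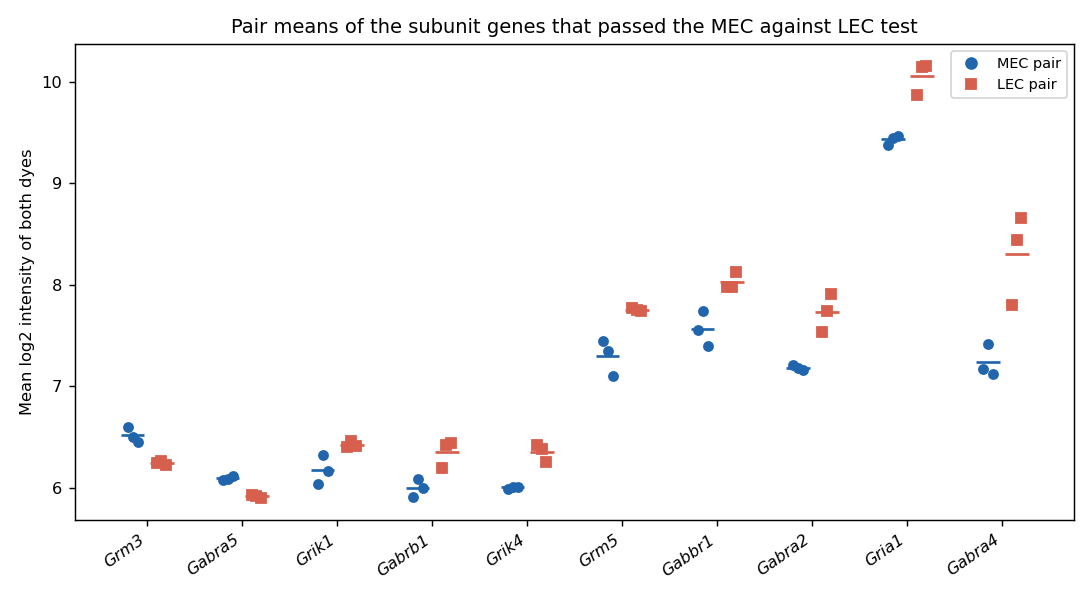
Levels of the 10 called subunit genes in each pair (mean log2 intensity of both dyes, vertical axis), circles for MEC, squares for LEC and lines for the means of 3 pairs. In each gene the 2 regions do not overlap; levels of different genes come from different probes and cannot be compared.

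The alpha subunits of the GABA-A receptor fix its speed and its place at or outside the synapse. Of those reported here, 2 were called higher in LEC, and Gabra5 was called higher in MEC. Gabra4, the alpha subunit of receptors outside the synapse in the forebrain, gave the largest difference of the 25 genes. Its levels were 7.17, 7.42 and 7.12 in the MEC pairs and 7.80, 8.44 and 8.66 in the LEC pairs. The latter were the more spread (SD 0.45 against 0.16, n = 3 pairs), but the lowest of them lay above every MEC pair, and the level was 2.09-fold higher in LEC (−1.07 ± 0.20, adjusted p = 0.00739; build mm8, chromosome 5, 71850519 to 71850578). Gabra2, an alpha subunit enriched at the start of the axon, had 7.21, 7.18 and 7.16 in MEC and 7.54, 7.74 and 7.91 in LEC, 1.46-fold higher in LEC (−0.55 ± 0.09, adjusted p = 0.00404). A second Gabra2 probe gave −0.06 ± 0.06 and was not called.

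Gabra5, which was tested through its MEC readings alone, is the alpha subunit of tonic currents in the hippocampus. It had 6.08, 6.09 and 6.12 in MEC and 5.93, 5.92 and 5.90 in LEC (0.18 ± 0.04, adjusted p = 0.0183). Only 2 of its 12 LEC readings were well above background, and the call was lost without MEC replicate 2 (adjusted p = 0.0516) or LEC replicate 2 (0.0662). Gabra3 gave −0.05 ± 0.06. Gabra6, best known from granule cells of the cerebellum, had overlapping levels of 6.23, 6.34 and 7.19 in MEC and 6.85, 6.00 and 6.26 in LEC (0.22 ± 0.28, adjusted p = 0.614).

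Among the beta subunits, which carry part of the GABA binding site, Gabrb1 was called. Its levels were 5.91, 6.09 and 6.00 in the MEC pairs and 6.20, 6.42 and 6.44 in LEC (−0.35 ± 0.08, adjusted p = 0.0135), with 4 of 12 MEC readings and 11 of 12 LEC readings well above background, so that it was tested through LEC alone. The call was lost without MEC replicate 1 (adjusted p = 0.0568). The probe named Gabrb2 gave −0.10 ± 0.05, and 2 further probes carry an older symbol of the same gene, C030002O17Rik, which the rule did not take. These gave 0.75 ± 0.07 (adjusted p = 0.000743) and 0.01 ± 0.15 (adjusted p = 0.969), so the level of Gabrb2 depends on the probe, and which probe reports the transcript best was not tested.

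The gamma subunits bring benzodiazepine binding and anchoring at the synapse, and Gabrg1 had levels of 6.61, 6.88 and 6.78 in MEC and 6.93, 6.99 and 6.84 in LEC, which overlapped (−0.16 ± 0.08, adjusted p = 0.155). Gabrd, the delta subunit of receptors outside the synapse, had −0.08 ± 0.07, and Gabrr1, a rho subunit best known from the retina, had −0.05 ± 0.06. Gabrg3, Gabre, Gabrp, Gabrq and Gabrr2 were not tested.

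GABA-B receptors work as a dimer of 1 subunit that binds GABA and 1 that reaches the G protein. Gabbr1, the binding subunit, had levels of 7.55, 7.74 and 7.40 in MEC and 7.98, 7.98 and 8.13 in LEC, 1.38-fold higher in LEC (−0.47 ± 0.09, adjusted p = 0.00761). Gabbr2, its partner, had 7.04, 7.08 and 7.08 in MEC and 6.92, 6.94 and 7.06 in LEC, which overlapped (0.09 ± 0.05, adjusted p = 0.229).

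Many GABA-A subunit genes lie side by side on a chromosome, and the rule for members did not use position. The grouping by position was chosen after the values were seen and has no test. On chromosome 5, Gabra2, Gabra4 and Gabrb1 were all called higher in LEC, and the fourth gene there, Gabrg1, gave −0.16. Of all genes tested, 14.1% were called higher in LEC. Gabrb1 was tested through LEC alone, and a second Gabra2 probe gave −0.06. On chromosome 11, Gabra6 gave 0.22 and Gabrb2 −0.10, 0.01 or 0.75 by probe. On chromosome 7, Gabra5 gave 0.18. A shared control of neighbouring genes was not tested.

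The 250 bases before the RefSeq start of each chromosome 5 gene are shown because these genes sit together and 3 of the 4 were called in 1 direction. They come from RefSeq (build GRCm38.p6), run 5′ to 3′ on the strand of the gene, and capitals mark a match to the GC box GGGCGG or the NRF1 core GCGCATGC on either strand. The windows are chr5:71095850-71096099 for Gabra2 (minus strand), chr5:71658309-71658558 for Gabra4 (minus strand), chr5:71699682-71699931 for the second RefSeq start of Gabrb1 (plus strand) and chr5:70842618-70842867 for Gabrg1 (minus strand).
Gabra2: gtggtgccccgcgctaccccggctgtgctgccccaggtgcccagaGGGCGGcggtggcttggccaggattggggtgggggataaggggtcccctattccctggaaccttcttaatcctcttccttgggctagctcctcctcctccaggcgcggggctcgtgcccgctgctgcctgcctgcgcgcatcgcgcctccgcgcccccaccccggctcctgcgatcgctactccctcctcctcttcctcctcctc
Gabra4: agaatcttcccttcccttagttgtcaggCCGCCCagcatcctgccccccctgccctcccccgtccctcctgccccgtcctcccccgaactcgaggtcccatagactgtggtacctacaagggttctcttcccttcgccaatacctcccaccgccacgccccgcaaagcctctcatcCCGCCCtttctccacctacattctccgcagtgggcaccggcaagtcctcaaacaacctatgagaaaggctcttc
Gabrb1: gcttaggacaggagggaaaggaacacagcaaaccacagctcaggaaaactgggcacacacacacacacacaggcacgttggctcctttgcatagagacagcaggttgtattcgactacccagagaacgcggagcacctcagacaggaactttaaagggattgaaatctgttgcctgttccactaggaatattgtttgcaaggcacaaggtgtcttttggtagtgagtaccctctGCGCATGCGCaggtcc
Gabrg1: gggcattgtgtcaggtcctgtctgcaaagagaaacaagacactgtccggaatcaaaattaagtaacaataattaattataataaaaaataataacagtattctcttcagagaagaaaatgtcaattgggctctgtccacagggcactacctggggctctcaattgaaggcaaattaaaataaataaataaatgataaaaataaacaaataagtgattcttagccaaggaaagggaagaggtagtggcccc
Gabra2 held 1 GC box and Gabra4 2, where 32.7% of 32851 such windows hold at least 1. The Gabrb1 window shown held the NRF1 core on both strands, where the matches overlap, and 2.26% of windows hold it. The window before the first RefSeq start of Gabrb1 held neither motif. None of the 4 held the TATA box TATAAA, found in 12.4% of windows, the cAMP response element TGACGTCA (1.55%) or the E-box CACGTG (6.02%). GC content was 70.0% in Gabra2, 61.2% in Gabra4, 50.8% in the Gabrb1 window shown (64.4% before its first start) and 35.6% in Gabrg1, beside a median of 52.4% over all windows. The first RefSeq start of Gabrb1 lies 387 bases from that of Gabra4, on the opposite strand, so that the 2 genes run across each other there. A match is a description of the letters and does not show that a factor binds.

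Genes that work with these receptors were counted from lists of their partners and of transmitter supply. Of 21 tested partners of glutamate receptors, 2 were called higher in MEC and 5 in LEC, with a median difference of −0.11. This is 33.3%, beside 25.7% of all genes tested. Camk2b, a kinase of the postsynaptic density, was higher in LEC (−0.43 ± 0.05, adjusted p = 0.00107), and Nsf, which binds GluA2 and drives membrane fusion, was higher in MEC (0.68 ± 0.08, adjusted p = 0.00194). Of 11 tested genes of glutamate supply and uptake, 2 were called higher in MEC and 1 in LEC, which is 27.3% and near the share of all genes. Slc1a6, the glutamate transporter EAAT4, was higher in LEC (−0.71 ± 0.12, adjusted p = 0.00589), and Gls2, a glutaminase, was higher in MEC (0.24 ± 0.05, adjusted p = 0.00739). None of 13 tested partners of GABA receptors was called by limma, and those of smallest p were Gphn, the scaffold gephyrin, at 0.16 ± 0.06 (adjusted p = 0.0903) and Plcl1 at −0.09 ± 0.04 (0.164). Of 8 tested genes of GABA supply and uptake, 2 were called, both higher in MEC, which is 25% and near the share of all genes. These were Gad1, which makes GABA (0.31 ± 0.06, adjusted p = 0.00681), and Slc32a1, which loads it into vesicles (0.42 ± 0.08, adjusted p = 0.00938).

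The second comparison asked whether neurons without Naglu differed from those of heterozygous littermates in any of these genes. No subunit gene was called by limma in MEC, in LEC, in the mean of both regions or in the difference between regions, and 0% of all 10896 genes were. No subunit gene had an unadjusted p under 0.05 in any of the 4 comparisons either, where 1.14%, 1.56%, 2.21% and 0.541% of all genes did. The log2 ratios of mutant over control averaged over both regions ran from −0.07 to 0.41, with standard errors from 0.04 to 0.33 and a median standard error of 0.08. With replicate 2 turned as labelled, again no member was called. Shifts of the size of these standard errors could not have been detected with 3 pairs per region.

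**Figure D3:**
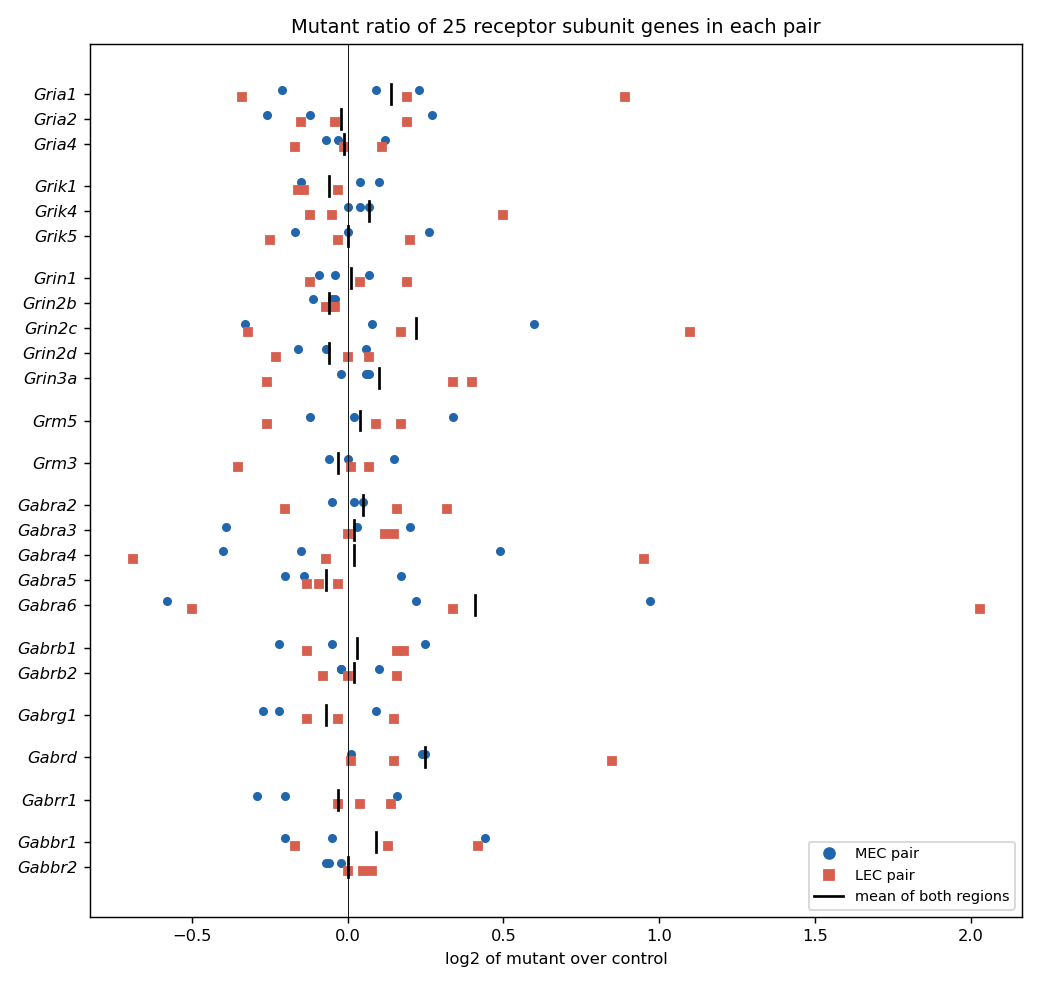
Log2 ratio of mutant over control (horizontal axis) in each of 3 MEC pairs (circles) and 3 LEC pairs (squares) for the 25 subunit genes, with a line at the mean of both regions. Most pairs lie near 0, and the widest spread is that of Gabra6, from −0.58 to 2.03.

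The sign was the same in all 3 MEC pairs for 3 subunit genes and in all 3 LEC pairs for 6, where 14.5% and 17.3% of all genes showed this. These counts depend on the direction of replicate 2, and with it turned as labelled they were 9 and 5 genes beside 36.1% and 30.8% of all genes, and 0 genes in all 6 pairs beside 7.66%, counts added after the values were seen. In the direction of the value table, the sign was the same in all 6 pairs for 2 genes, Gabrd and Grin2b, where 1.88% of all genes showed it. Gabrd had ratios of 0.24, 0.01 and 0.25 in MEC and 0.85, 0.01 and 0.15 in LEC. All were above 0, but those of pair 2 were at 0.01 in both regions and would change sign if turned as labelled. The mean was 0.25 ± 0.11 (SE), with the smallest p of the members (unadjusted p = 0.0582, adjusted p = 1). Without LEC pair 1 the mean was 0.12 and the LEC ratio 0.08 in place of 0.34. Grin2b had −0.04, −0.05 and −0.11 in MEC and −0.07, −0.04 and −0.05 in LEC, a mean of −0.06 ± 0.04 (unadjusted p = 0.175), and its Cy5 signal was well above background on 2 of 12 arrays. Its pair 2 ratios would be above 0 if turned as labelled.

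Genes of 3 other receptors had ratios that crossed 0. Gria1 had 0.23, −0.21 and 0.09 in MEC and −0.34, 0.89 and 0.19 in LEC, a mean of 0.14 ± 0.15. Gabra4, which differed most between regions, had −0.40, −0.15 and 0.49 in MEC and −0.07, −0.69 and 0.95 in LEC, a mean of 0.02 ± 0.21. Grin1 had −0.09, −0.04 and 0.07 in MEC and −0.12, 0.04 and 0.19 in LEC, a mean of 0.01 ± 0.05. In each of these 3 genes the pairs disagreed in sign within at least 1 region.

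Other members of smallest p were also not called. In the mean of both regions, Gabra5 had −0.07 ± 0.06, Grik1 −0.06 ± 0.05, Grin3a 0.10 ± 0.09 and Gabrg1 −0.07 ± 0.07, none with an adjusted p under 1. In MEC, Gabrg1 had −0.13 ± 0.09 (unadjusted p = 0.189) and Gabrr1 −0.11 ± 0.09 (0.283). In LEC, Grik1 had −0.11 ± 0.07 (unadjusted p = 0.17) and Grin3a 0.16 ± 0.13 (0.244). Without LEC replicate 1, Grin3a moved to 0.37 in LEC and 0.21 in the mean (unadjusted p = 0.00301 and 0.00611 by limma, adjusted p = 1 in both). The difference of the ratio between MEC and LEC was −0.16 ± 0.13 for Gabrr1, −0.10 ± 0.08 for Gabbr2, 0.10 ± 0.10 for Grik1 and −0.13 ± 0.13 for Gabrg1. Turning replicate 2 as labelled reversed the sign of several of these small ratios.

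Gabra6 had the widest ratios among pairs of the 25 genes, followed by Gabra4 and Grin2c. Gabra6 had 0.22, −0.58 and 0.97 in MEC and 2.03, 0.34 and −0.50 in LEC (mean 0.41 ± 0.33, unadjusted p = 0.254). Grin2c had 0.08, −0.33 and 0.60 in MEC and 1.1, 0.17 and −0.32 in LEC (mean 0.22 ± 0.19, unadjusted p = 0.299). Both means rest on LEC pair 1, and without it they were 0.06 for Gabra6 and 0.02 for Grin2c. In both genes the pairs ran the same way, highest in LEC pair 1 and MEC pair 3 and below 0 in MEC pair 2 and LEC pair 3. The ratios of pair 2 would change sign in both if turned as labelled, while those of pairs 1 and 3 would not. By channel, the mutant of LEC pair 1 had a Gabra6 level of 7.86 and its control 5.84, and the mutant of MEC pair 3 had 7.68 and its control 6.71. Grin2c stood at 7.57 and 6.46 in LEC pair 1 and at 7.16 and 6.56 in MEC pair 3.

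Gabra6, Gabrd and Grin2c are all known from granule cells of the cerebellum. Grin2c had the sign of Gabra6 in 6 of 6 pairs, but Gabrd only in 4. Further genes of those cells were listed after these values had been seen, and have no test. Of Cbln1, Cbln3, Zic1, Zic2, Zic4, Neurod1 and Barhl1, 3 were tested. Zic1, a transcription factor of granule cells and of some other parts of the brain, had ratios of 1.51, −1.5 and 2.46 in the MEC pairs and 3.79, 1.75 and −1.34 in LEC, the same signs in each pair as Gabra6. Cbln1, a secreted protein that joins delta receptors to their partners, had 0.37, −0.76 and 0.79 in MEC and 1.5, 0.43 and −1.93 in LEC, again the same signs. Barhl1 had −0.14, 0.24 and −0.87 in MEC and −0.61, 0.37 and −0.24 in LEC, and did not follow them. In level, Cbln1 was called higher in MEC (1.78 ± 0.44) and Barhl1 higher in LEC (−0.53 ± 0.13). Zic1 (0.07 ± 0.46), Gabra6, Gabrd and Grin2c were not called. Of the Purkinje cell genes Pcp2, Car8 and Ppp1r17, 2 were tested. Car8 had ratios of 0.28, −0.05 and 0.28 in MEC and 0.50, 0.35 and −0.38 in LEC, with the sign of Gabra6 in 6 of 6 pairs, and was well above background in 9 of 24 readings. Pcp2 had 0.07, 0.02 and 0.11 in MEC and 0.34, 0.26 and −0.17 in LEC, with the sign of Gabra6 in 5 of 6 pairs. How many of all genes share the signs of Gabra6 this often was not counted. Over all genes, the ratio deviations of MEC and LEC pairs correlated at −0.38 to 0.44, so shared signs need not be particular to these genes. Whether cells from outside the entorhinal cortex had a part in these ratios was not tested.

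**Figure D4:**
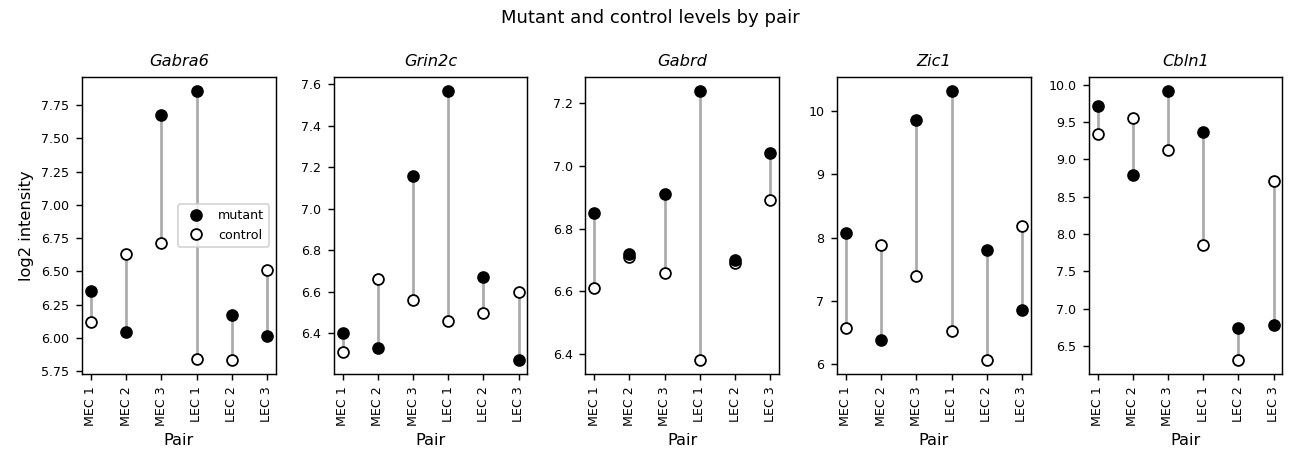
Level (log2 intensity, vertical axis) of the mutant (filled) and control (open) channel in each pair for Gabra6, Grin2c, Gabrd, Zic1 and Cbln1; mutant and control of replicate 2 would be exchanged if its dyes were read as labelled. In Gabra6, Grin2c, Gabrd and Zic1 the mutant of LEC pair 1 is the highest sample, at 7.86, 7.57, 7.24 and 10.32. Barhl1, which had the sign of Gabra6 in 2 of 6 pairs, is not shown.

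In the pathway lists no gene was called for the mutant ratio by limma. The genes of smallest p in the mean of both regions were Dlg1, a scaffold of glutamate receptors, at 0.11 ± 0.06 (unadjusted p = 0.0838), Slc1a2, the main glial glutamate transporter, at 0.27 ± 0.17 (0.148), Clptm1 at −0.05 ± 0.05 (0.36) and Aldh5a1, which degrades GABA, at 0.07 ± 0.06 (0.231).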

How the data were processed

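Female Naglu-/- mice and Naglu+/- littermates gave 3 MEC and 3 LEC pairs, each on 2 dye-swapped Agilent arrays. The deposited scanner files hold the authors' mean and background intensity per dye as raw values, background-subtracted and dye-normalised intensity, a log10 ratio of Cy5 over Cy3, and detection flags. Per the file headers the software was Agilent Feature Extraction 9.5.1.1, and 8.5.1.1 per the submitters' processing notes. Log2 ratios per array are also deposited in a value table by the authors, whose scale was found by matching and whose centring and direction are not stated; its column medians ran from −0.4 to 0.4.

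Arrays and signs followed the value table, matched over spots with 20 or more of 24 readings well above background. With R 4.3.3, limma 3.58.1 and data.table (version 1.17.8), background was corrected by normexp (offset 50), which understates fold changes of dim probes, followed by loess within arrays for ratios and quantile normalisation for levels. Spots and the arrays of a pair were averaged. The filter kept the 12987 probes with 4 or more of 6 readings well above background in any region and genotype. The brightest kept probe stood for its gene, and for a member gene the brightest kept probe that carried a member name. Of 41174 probes, 23483 were named by accession, 6678 by symbol and 2887 by older symbol, and 8126 had no match in the RefSeq table of assembly GRCm38.p6. Tests were limma's, two-sided, adjusted by Benjamini-Hochberg over all genes at 0.05, with 3 pair means per region. Their p-values measure the spread between these pairs. The scripts were tested on simulated data. Array number limits the precision.

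Genes were named where they passed a comparison or, up to 12 for levels, 8 for the averaged ratio and 4 for each other ratio, had the smallest p, with at least 1 per receptor class. Of each pathway list, 2 genes were named for levels and 1 for the ratio. Of the 47 members by the rule, 5 are not reported here, and counts of members leave them out. Members and lists were chosen with earlier results of these data known. Alternatives covered replicates, probe filter, signals, scaling, dyes, labels and blocks.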

Additional observations from a re-analysis of the deposited data

Results flagged for a closer look

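Gabbr2, the GABA-B partner subunit, had mutant ratios below 0 in all 3 MEC pairs (−0.06, −0.02 and −0.07) and above 0 in all 3 LEC pairs (0.05 and 0.08, with the third above 0 before rounding). The signs thus opposed each other in every pair. The direction of replicate 2 is not settled, and turned as labelled its ratios would change sign in both regions, so that neither region would keep 1 sign and the difference would be −0.05 (unadjusted p = 0.553, adjusted p = 0.849). As read from the value table, the difference of −0.10 ± 0.08 did not pass limma's test of the difference itself (unadjusted p = 0.264, adjusted p = 1).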

How the results depend on the processing

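The count of 10 members called for level was 8 to 10 without any 1 replicate, and 2 without replicate 2 of both regions, where 724 of all genes were called. It was 5 of 10 genes tested with probes well above background in all 24 readings (fewer genes tested), with 38.2% of all genes called, 16 with median scaling (1 higher in MEC, 15 in LEC; 54.1% of all genes), 3 from control channels only and 1 from mutant channels only, where single channels left 524 and 406 calls over all genes. It was 15 with 75th percentile scaling, which moved the median of all genes to −0.112 and called 40.8% of them. Cy3 alone gave 10 (0 higher in MEC, 10 in LEC) beside 19.4% of all genes, and Cy5 alone 10 (2 and 8) beside 20.4%. Gabrb2 by its brightest probe under the updated name, an alternative chosen after seeing the data, left 10. That probe gave 0.01, and the Gabrb2 probe at 0.75 was not put in its place. Of the values of named genes for level, 236 kept direction and side of the threshold, 39 lost the call, 17 gained it and 4 reversed, all of the last in genes not called. Grin1 turned to 0.022 with Agilent processed signals. Gabrr1 turned to 0.033 with Cy5 only and 0.03 with control channels only, and Gabrd to 0.002 with the latter.

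For the mutant ratios the count of called members was 0 under every alternative run, including the authors' value table, while up to 5 of all genes were called. With files and dyes as labelled, the ratio turned to 0.045 for Gabrg1 and 0.082 for Gabrr1 in MEC, −0.005 for Gabrd in LEC, and 0.009 for Gabra5, 0.027 for Grik1 and 0.036 for Gabrg1 in the mean, and the difference between regions to 0.083 for Gabrr1 and 0.018 for Gabrg1. With replicate 2 turned as labelled, it turned to 0.045 for Gabrg1 and 0.082 for Gabrr1 in MEC, −0.067 for Grin3a in LEC, and 0.002 for Grik1 and −0.035 for Grin3a in the mean, and the difference to 0.011 for Gabrr1 and 0.147 for Gabrg1. Leaving out replicates, Gabra6 in LEC ran from −0.08 without LEC replicate 1 to 1.18, and the difference of Gabrg1 from −0.242 to 0.012. The cause of these changes was not tested.

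Replicate numbers are not stated to join MEC and LEC of the same mice, so the main fit did not take them as pairs. Deviations from the mean of the 3 pairs of a region were also compared between pairs that share a number. Their correlations were −0.06, 0.02 and −0.03 for levels and −0.18, 0 and −0.36 for ratios. Those for ratios depend on the direction of replicate 2, which is not settled. Between pairs of different numbers, the ratio correlations reached 0.44 (MEC 3 with LEC 1) and −0.38 (MEC 2 with LEC 1). Ratios of MEC and LEC pairs may thus not be independent, and whether such pairs share mice was not tested. With the replicate block, 9 members and 2417 of all genes were called for level, Gabra5 being lost (adjusted p = 0.0517), and the block left 0 members called in the ratio comparisons it was run on. A slide block could not be fitted, since each slide held 1 array. Of the 25 genes, 10 were well above background in all 24 readings and 6 in fewer than 8 of 12 Cy5 readings, which limits the ratios of dim members.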
